A study of Mus musculus with 8 samples.

Results

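The ligands *Wnt4*, *Wnt7a*, *Wnt7b* and *Wnt10a*, the receptor *Fzd7*, the antagonists *Dkk3* and *Sfrp1*, the transcription factors *Lef1* and *Tcf7* and the feedback target *Axin2* were followed in RNA-seq libraries of NMuMG cells, a line of mammary gland epithelium from the mouse. These 10 genes were taken by symbol from the 37310 rows of the deposited table of read counts, each symbol matching 1 row. There were 4 groups with 2 libraries each: control cells and cells of genotype KO, either untreated or exposed to 10 ng/mL TGFβ1 for 2 h. According to the study's methods, Cas9 and guide pairs were used to cut out the start of *Lnc-Nr6a1*, a long non-coding RNA, with part of its promoter and exon, after which single sorted cells were grown into clones. The labels do not say whether the KO libraries came from 1 clone or several, so a property of a clone and the deletion cannot be told apart. The study describes the libraries of a group as biological replicates.

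Wnt proteins are secreted, lipid-modified ligands that bind Frizzled receptors together with the co-receptors Lrp5 and Lrp6. In the canonical branch this stops the destruction of β-catenin by a complex built on Axin proteins, and β-catenin then joins TCF/LEF factors on DNA to switch on targets such as *Axin2*, which acts as a negative feedback on the pathway. Secreted proteins of the Sfrp and Dkk families limit the signal outside the cell. In the mammary gland Wnt4 is known as a ligand made by luminal cells that acts on their neighbours during branching, and TGF-β drives epithelial cells toward a mesenchymal state.

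The stretches just upstream of the annotated starts of *Wnt4*, *Wnt7a*, *Axin2* and *Fzd7* are printed because the former 3 differed between genotypes and the last carries the motif of the pathway's own factors. Each is 250 bases from RefSeq on the GRCm38.p6 build, written 5′ to 3′ on the gene's strand, with motif matches in capitals. The intervals are chr4:137277385-137277634 (plus strand) for *Wnt4*, chr6:91411354-91411603 (minus strand) for *Wnt7a*, chr11:108920099-108920348 (plus strand) for *Axin2* and chr1:59481897-59482146 (plus strand) for *Fzd7*.
Wnt4: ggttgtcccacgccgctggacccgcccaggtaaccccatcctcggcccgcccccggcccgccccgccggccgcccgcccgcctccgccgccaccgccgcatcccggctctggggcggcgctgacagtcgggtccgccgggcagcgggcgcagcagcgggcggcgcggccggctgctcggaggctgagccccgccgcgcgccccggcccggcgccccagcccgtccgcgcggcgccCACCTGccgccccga
Wnt7a: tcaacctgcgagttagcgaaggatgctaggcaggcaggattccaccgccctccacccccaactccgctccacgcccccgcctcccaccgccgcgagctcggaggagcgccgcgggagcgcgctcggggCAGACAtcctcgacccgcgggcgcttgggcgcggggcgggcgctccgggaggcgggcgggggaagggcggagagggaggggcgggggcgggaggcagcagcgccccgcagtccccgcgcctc
Axin2: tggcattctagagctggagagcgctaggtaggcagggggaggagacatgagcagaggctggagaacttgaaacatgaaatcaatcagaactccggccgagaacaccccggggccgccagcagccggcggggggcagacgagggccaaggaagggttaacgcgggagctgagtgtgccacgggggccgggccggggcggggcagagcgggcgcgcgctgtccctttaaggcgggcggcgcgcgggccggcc
Fzd7: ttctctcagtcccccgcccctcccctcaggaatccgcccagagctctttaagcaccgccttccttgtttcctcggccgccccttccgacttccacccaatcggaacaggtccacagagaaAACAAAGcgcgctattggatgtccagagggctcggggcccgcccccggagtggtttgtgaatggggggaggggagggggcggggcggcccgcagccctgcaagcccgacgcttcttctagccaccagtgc

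The motifs searched on both strands were the TCF/LEF motif as CTTTGAA or CTTTGAT or CTTTGTA or CTTTGTT, the SMAD palindrome (GTCTAGAC), the SMAD element CAGACA and the E-box CACCTG, which are bound by factors of the Wnt and TGF-β pathways and of the epithelial to mesenchymal transition. Of the 32851 promoter windows of this length in the table, 14.8% held the TCF/LEF motif, 0.167% the palindrome, 17.1% CAGACA and 17.2% CACCTG. In *Fzd7* a TCF/LEF match (CTTTGTT on the opposite strand) lay at -130 to -124 from the start, in *Wnt4* CACCTG lay at -15 to -10 and in *Wnt7a* CAGACA lay at -122 to -117. None of these letters occurred in the *Axin2* window. The *Wnt4* window was 85.2% G or C with 44 CpG, *Wnt7a* had 77.6% and 34, *Axin2* 69.2% and 24, and *Fzd7* 65.2% and 17. Promoter entries matched 6 of the 10 genes. *Lef1* had matches in only 1 of its 4 windows and *Tcf7* in neither of its 2, and no entry was matched for *Wnt7b*, *Wnt10a*, *Dkk3* or *Sfrp1*. That *Lef1* window also held a TCF/LEF match (CTTTGTA on the opposite strand) at -147 to -141. It held CAGACA at -219 to -214 and, on the opposite strand, at -129 to -124.

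The libraries held 4297832 to 13574397 counts. *Lnc-Nr6a1* (*Gm13507* in the table), the gene targeted by the deletion, had 3 and 14 counts in untreated control libraries, 25 and 35 in treated control libraries, 11 and 7 in untreated KO libraries and 0 and 0 in treated KO libraries. The treated KO libraries lay at least 12.5-fold below the treated controls (floor of 3 counts per library), whereas the untreated KO libraries overlapped their controls with a log2 fold change of 0.61 (SE 0.83, adjusted p = 0.785 in edgeR). Left out in turn, control replicate 1 turned this value to -0.10 and KO replicate 1 to -0.15. The targeted gene therefore did not separate the untreated genotypes, and KO libraries are called labelled KO below. Luminal epithelial markers were abundant as a list (summing to 5913 to 10961 CPM, counts scaled to library depth with TMM factors), but *Cldn3* and *Cldn7* had no count and *Epcam* had 2 counts in 1 library. Lists for 4 other cell types stayed low: fibroblast genes summed to 0.797 to 4.73 CPM, leukocyte genes to 2.23 to 5.58, endothelial genes to 0 to 0.847 and adipocyte genes to 0 to 0.220. Of the 6 genes of the basal cell list, *Krt14*, a keratin, was at 2.42 to 5.19 CPM in untreated and 23.0 to 41.8 in treated libraries. The other 5 (*Krt5*, *Trp63*, *Oxtr*, *Cnn1* and *Myh11*) had at most 9 counts in any library and were not tested, so the summed level of the list (2.87 to 5.91 CPM untreated and 23.9 to 42.1 treated) was nearly all *Krt14*.

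*Wnt7b* was the most abundant of the 10 genes when levels were expressed per kilobase of exon (RPKM). Its mean level was 24.3 ± 0.632 RPKM in untreated controls, 34.3 ± 0.287 in untreated labelled KO, 42.8 ± 14.0 in treated controls and 85.7 ± 11.8 in treated labelled KO libraries (SD, n = 2 in each group). In untreated controls *Fzd7* followed at 4.37 ± 0.464 RPKM, then *Wnt4* at 2.01 ± 0.0373 and *Wnt7a* at 1.98 ± 1.28, whose libraries overlapped. *Axin2* at 0.837 ± 0.149 and *Tcf7* at 0.803 ± 0.270 also overlapped, and *Wnt10a* stood at 0.221 ± 0.172. *Lef1*, *Dkk3* and *Sfrp1* had no count there. In treated controls *Fzd7* (3.73 ± 1.29) and *Wnt7a* (3.35 ± 1.44) overlapped, above *Wnt4* (2.07 ± 0.144). In untreated labelled KO libraries *Wnt4* came second (5.92 ± 1.53), above *Wnt7a* (4.16 ± 0.280) and *Fzd7* (3.45 ± 0.769), which overlapped. In the treated labelled KO libraries *Wnt7a* (11.4 ± 6.88) and *Wnt4* (4.71 ± 0.234) stood above *Fzd7* (2.91 ± 0.967), and *Tcf7* (1.80 ± 0.396) above *Axin2* (0.168 ± 0.0487), with no overlap between neighbours.

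**Figure D1:**
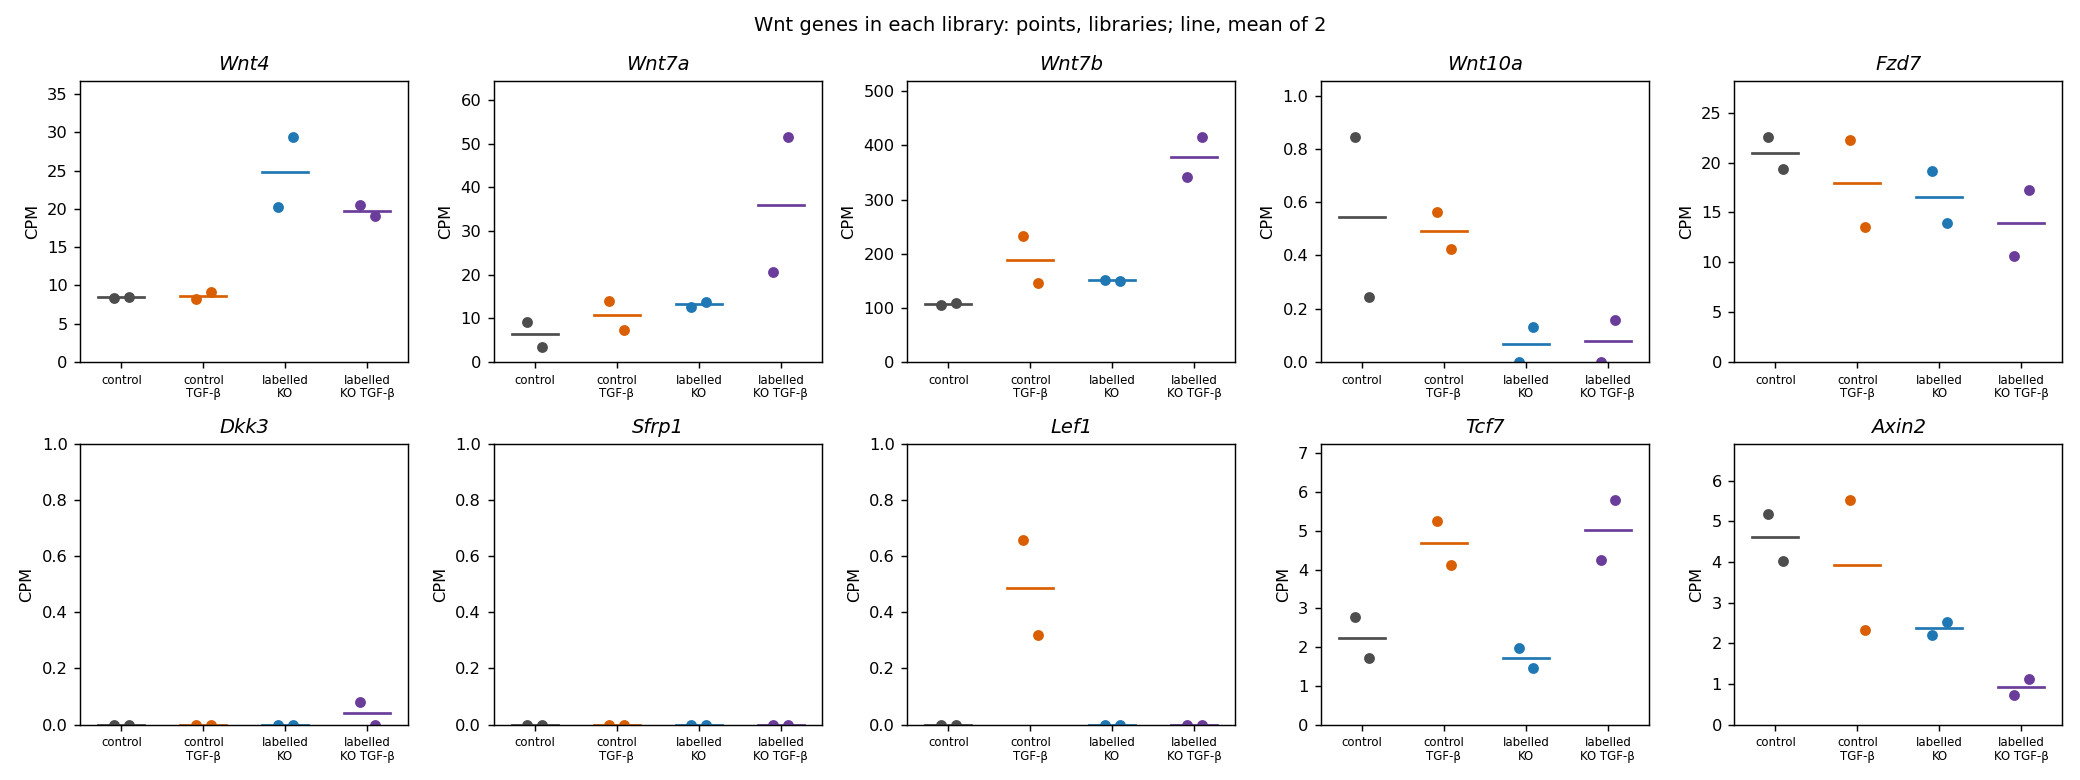
CPM (depth-scaled counts, linear axis from 0) of the 10 genes in each of the 8 libraries, with points for libraries and a line for the mean of 2. *Wnt4* is higher in all 4 labelled KO libraries than in all 4 control libraries, *Axin2* is lowest in the treated labelled KO libraries, and *Lef1* has counts only in treated controls.

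*Wnt4* (ENSMUSG00000036856.4, chr4:136833404-136855641 on NCBIM37) was higher in labelled KO than in control libraries with and without TGF-β. Its level was 8.32 and 8.54 CPM in untreated controls, 8.25 and 9.10 in treated controls, 20.3 and 29.4 in untreated labelled KO and 20.5 and 19.1 in treated labelled KO libraries. All 4 labelled KO libraries lay above all 4 control libraries, and within a genotype the treated and untreated libraries overlapped. The difference was 2.96-fold in untreated cells (log2 1.57, SE 0.24, adjusted p = 0.0145, edgeR quasi-likelihood test; calls needed an adjusted p under 0.05 and a log2 change beyond 0.5) and 2.28-fold in treated cells (log2 1.19, SE 0.24, adjusted p = 0.0123). TGF-β moved *Wnt4* by a log2 fold change of 0.04 (SE 0.25) in control and -0.34 (SE 0.23) in labelled KO cells, neither past the threshold (adjusted p = 0.938 and 0.427). The untreated call was lost without control replicate 1, control replicate 2 or KO replicate 2 (adjusted p = 0.139, 0.142 and 0.145, with log2 fold changes of 1.55, 1.58 and 1.26), and the treated call without the second treated KO library (1.24, adjusted p = 0.0527). In bulk RNA, a changed share of expressing cells and a changed amount of RNA per cell cannot be told apart.

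*Wnt7a* (ENSMUSG00000030093.6, chr6:91313975-91361357), a ligand of the same subfamily as Wnt7b, was higher in labelled KO than in control libraries after TGF-β. It measured 9.17 and 3.42 CPM in untreated controls, 13.9 and 7.41 in treated controls, 12.6 and 13.8 in untreated labelled KO and 20.6 and 51.5 in treated labelled KO libraries. The labelled KO libraries lay above the controls in each condition without overlap, but the treated pair differed widely. The treated difference was 3.38-fold (log2 1.76, SE 0.50, adjusted p = 0.0446), against a log2 fold change of 1.07 (SE 0.55, adjusted p = 0.406) in untreated cells. The treated call was lost without the second treated KO library, the one at 51.5 CPM (log2 0.96, adjusted p = 0.307), without the second treated control library (1.39, adjusted p = 0.155), with the replicate number as a block (1.79, adjusted p = 0.0726) and in limma-voom (1.66, adjusted p = 0.0546). TGF-β against untreated gave 0.76 (SE 0.54, adjusted p = 0.401) in control and 1.45 (SE 0.51, adjusted p = 0.133) in labelled KO cells. The latter passed in DESeq2 (1.46, adjusted p = 0.0236), without a filter on low counts (1.51, adjusted p = 2.36e-06) and without the first treated KO library (1.97, adjusted p = 0.0346), and the untreated genotype difference passed without the filter (1.04, adjusted p = 0.0192).

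*Wnt7b* (ENSMUSG00000022382.7, chr15:85365869-85412251) rose with TGF-β in both genotypes and was higher in treated labelled KO than in treated control libraries. Its values were 105 and 109 CPM in untreated controls, 152 and 150 in untreated labelled KO, 233 and 145 in treated controls and 341 and 415 in treated labelled KO libraries. The treated labelled KO libraries lay above the other 6, whereas the lower treated control library fell under both untreated labelled KO libraries. TGF-β raised the gene 1.76-fold in control cells (log2 0.82, SE 0.21, adjusted p = 0.0425) and 2.50-fold in labelled KO cells (log2 1.32, SE 0.21, adjusted p = 0.00713). The difference between these responses was 0.51 (SE 0.30, adjusted p = 0.664). Between genotypes the treated difference was 2.00-fold (log2 1.00, SE 0.21, adjusted p = 0.0149) and the untreated log2 fold change 0.50 (SE 0.21, adjusted p = 0.31).

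The *Wnt7b* response in control cells was lost under the most alternatives of its calls. It was lost without control replicate 1 (log2 0.79, adjusted p = 0.229), without control replicate 2 (0.84, adjusted p = 0.165), without the first treated control library (0.43, adjusted p = 0.118), with the replicate block (0.81, adjusted p = 0.0692), in limma-voom (0.78, adjusted p = 0.0560) and with only the 4 control libraries (0.81, adjusted p = 0.0965). The labelled KO response was lost without KO replicate 1 or 2 (1.33 and 1.31, adjusted p = 0.0839 and 0.095), and the treated genotype difference without the second treated KO library (0.86, adjusted p = 0.0801). The exons of *Wnt7b* overlap those of *AU022754*, an antisense non-coding gene with 15 to 75 counts against 690 to 5225 for *Wnt7b*, and since it is not given whether counting used strand, their reads cannot be fully told apart. Marker genes of other cell types also differed with treatment. Of the basal cell list, *Krt14* alone did, by 2.33 (SE 0.31) on the log2 scale in control and 3.66 (SE 0.35) in labelled KO cells, and the other 5 genes stayed at or near 0. The fibroblast list of 7 genes, with *Lum* and *Thy1* at 0 in all libraries, summed to 0.965 to 1.95 CPM in untreated and 2.72 to 4.44 in treated controls, with *Col1a1* at 3 and 9 and then 19 and 30 counts, and to 0.797 to 4.63 and then 4.61 to 4.73 CPM in labelled KO libraries, which overlapped. The endothelial list of 5 genes, with *Kdr* and *Cldn5* at 0, summed to 0 to 0.362 and then 0.562 to 0.847 CPM in controls and 0 to 0.133 and then 0.326 to 0.556 in labelled KO libraries, from at most 8 counts of a gene in a library. The leukocyte list was at 3.38 to 3.42 CPM in untreated and 3.56 to 4.66 in treated controls, and at 4.19 to 5.58 in untreated and 2.23 to 2.45 in treated labelled KO libraries. The summed luminal list stood at 7973 to 10961 CPM in treated and 5913 to 7009 in untreated libraries, mainly through *Krt8* (2990 to 4345 against 2126 to 2624) and *Krt18* (3014 to 5797 against 2441 to 2841). Of its other genes, *Krt19* was lower in treated libraries of each genotype (928 and 940 against 968 and 1013 CPM in controls, 1251 and 1277 against 1376 and 1300 in labelled KO). *Cdh1* overlapped in controls (238 and 242 against 193 and 267) and was higher in treated labelled KO libraries (333 and 400 against 247 and 266). *Ocln* overlapped in controls (34.4 and 40.4 against 38.0 and 40.8) and was lower in treated labelled KO libraries (36.5 and 33.1 against 41.7 and 45.7). The part of these lists in the *Wnt7b* result was not tested.

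*Wnt10a* (ENSMUSG00000026167.8, chr1:74838090-74850753) was close to the limit of detection. It had 7 and 2 counts in untreated controls, 6 and 4 in treated controls, 0 and 1 in untreated labelled KO and 0 and 2 in treated labelled KO libraries, and was too low for the test. The summed counts scaled by depth were 6.59 times as high in untreated controls as in labelled KO libraries, with an exact 95% interval from 0.912 to 289, and 6.18 times as high under TGF-β, with an interval from 1.32 to 58.0. These intervals cover counting error only, and replicate libraries differed by more than that, with a chi-square per degree of freedom of 6.28 to 36.1 over genes.

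Among all 19 Wnt ligands in the annotation, *Wnt7b* made up 74.8% to 88.0% of the summed RPKM in every library. *Wnt4* made up 3.28% to 15.4%, with the highest share in an untreated labelled KO library, and *Wnt7a* 3.82% to 14.0%. The sum over the ligands was 28.9 ± 0.921 RPKM in untreated controls, 48.9 ± 15.6 in treated controls, 44.8 ± 1.06 in untreated labelled KO and 103 ± 18.8 in treated labelled KO libraries (SD, n = 2). Of the 15 ligands other than these 4 genes, 10 had no count in any library and 1, *Wnt9a*, was abundant enough to be tested.

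**Figure D2:**
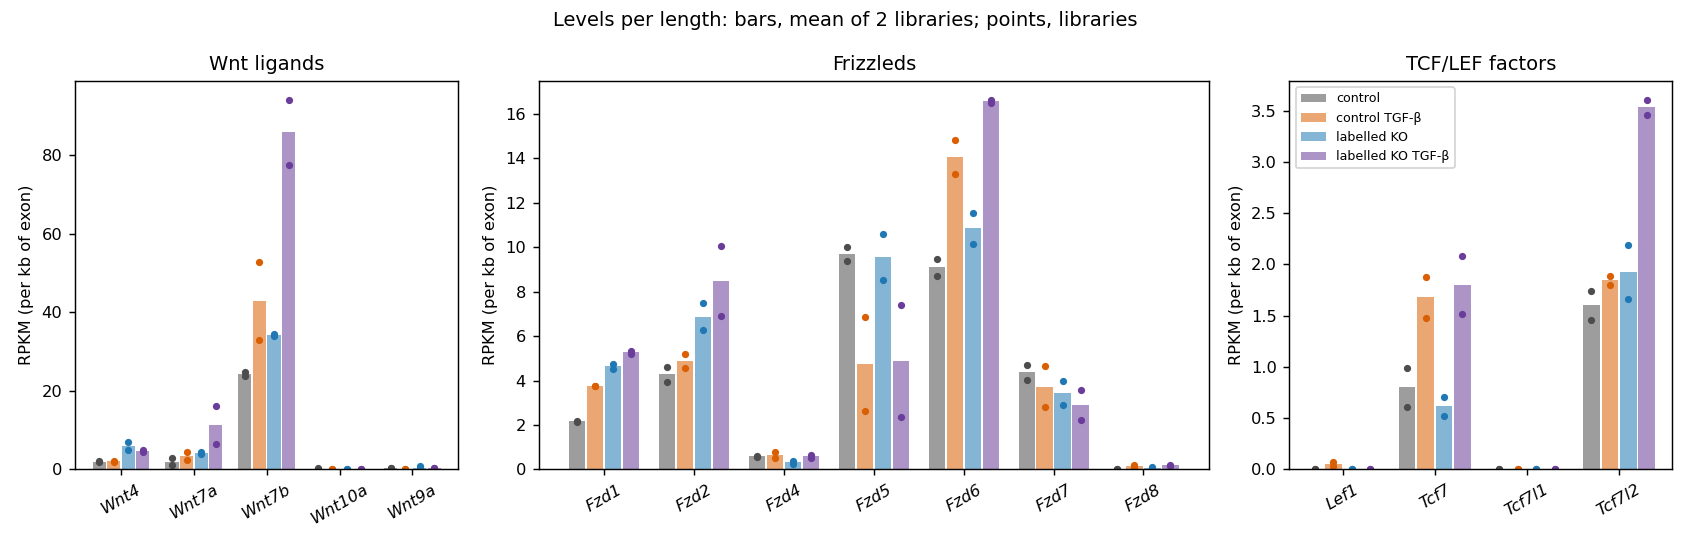
Levels per length (RPKM, linear axes from 0) of Wnt ligands, Frizzled receptors and TCF/LEF factors in the 4 groups, with bars for the mean of 2 libraries and points for libraries. Of the ligands and Frizzleds, those with less RNA than the ones drawn are left out. *Wnt7b* dominates the ligands in every group and reaches 85.7 RPKM in treated labelled KO libraries, *Fzd6* leads the Frizzleds under TGF-β, and *Tcf7l2* is at or above *Tcf7* in each group mean.

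*Fzd7* (ENSMUSG00000041075.7, chr1:59538991-59543791), a Frizzled receptor, passed the threshold in none of the comparisons. It measured 22.6 and 19.4 CPM in untreated controls, 22.3 and 13.5 in treated controls, 19.2 and 14.0 in untreated labelled KO and 10.7 and 17.2 in treated labelled KO libraries. The untreated labelled KO libraries lay just below the untreated controls and the treated groups overlapped. The log2 fold changes between genotypes were -0.35 (SE 0.32, adjusted p = 0.658) untreated and -0.36 (SE 0.31, adjusted p = 0.467) treated, and those for TGF-β were -0.22 (SE 0.31) and -0.23 (SE 0.32). As group means, its share of the summed Frizzled RPKM was 14.4% in untreated and 11.5% in treated controls. In labelled KO libraries it was 9.67% untreated and 7.40% treated, the latter from 5.97% to 8.82%. The sum itself was 30.3 ± 0.886 RPKM in untreated controls and 39.0 ± 2.47 in treated labelled KO libraries. *Fzd6*, *Fzd2*, *Fzd1* and *Fzd5* made up 42.6%, 22.0%, 13.5% and 12.3% in treated labelled KO libraries. There *Fzd2* ranged from 16.9% to 27.0% and *Fzd5* from 6.40% to 18.2%.

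Both secreted antagonists among the 10 genes were at or near 0 counts. *Sfrp1* (chr8:24521974-24560104), a decoy receptor for Wnts, had 0 counts in each of the 8 libraries, and *Dkk3* (chr7:119259533-119302571), a divergent Dickkopf family member, had 1 count in 1 treated labelled KO library. At these depths 3 counts correspond to 0.238 to 0.661 CPM, which is the level up to which such genes could go unseen. Of the 14 other secreted or membrane antagonists, 2 were abundant enough to be tested, the membrane proteins *Kremen1* and *Apcdd1*. *Kremen1*, a Dickkopf receptor, was at 20.1 and 30.6 CPM in treated labelled KO and 15.1 and 11.7 in treated control libraries (log2 0.92, SE 0.25, adjusted p = 0.0400), a call lost without the second treated control library or the second treated KO library, with the block and with only the 4 treated libraries. *Apcdd1* (19 to 55 counts) passed in none of the comparisons.

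*Lef1* (ENSMUSG00000027985.8, chr3:130813389-130927274), a TCF/LEF factor that is itself a common Wnt target, had counts in treated controls alone, with 7 and 3 there (0.656 and 0.317 CPM) and 0 in the other 6 libraries. The second of these lies at the floor of 3 counts, so no fold was calculated, and the gene was too low for the test. Genes of chromosome 3, where *Lef1* lies, had median log2 fold changes of -0.34 both in untreated and in treated labelled KO against control cells over 641 tested genes, whose part in the *Lef1* counts was not tested.

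*Tcf7* (ENSMUSG00000000782.8, chr11:52065873-52096681), which encodes TCF1, was higher in treated than in untreated libraries without overlap, though not past the threshold. Its values were 2.77 and 1.71 CPM in untreated controls, 1.98 and 1.46 in untreated labelled KO, 5.25 and 4.13 in treated controls and 4.24 and 5.80 in treated labelled KO libraries. The TGF-β fold change was 2.09 in control cells (log2 1.06, SE 0.41, adjusted p = 0.138) and 2.96 in labelled KO cells (log2 1.57, SE 0.44, adjusted p = 0.0675), where it passed without a filter on low counts (1.63, adjusted p = 0.0144). Between genotypes the libraries overlapped, with log2 fold changes of -0.41 (SE 0.48) untreated and 0.10 (SE 0.38) treated. *Tcf7* made up 19.3% to 48.9% of the summed TCF/LEF RPKM and *Tcf7l2* 49.1% to 80.7%.

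*Axin2* (ENSMUSG00000000142.9, chr11:108781663-108812097), the feedback target, was lower in labelled KO than in control libraries after TGF-β, while the 3 ligands above were higher in the same comparison. It measured 5.19 and 4.03 CPM in untreated controls, 5.53 and 2.33 in treated controls, 2.20 and 2.53 in untreated labelled KO and 0.734 and 1.11 in treated labelled KO libraries, from counts of 9 to 59 per library. The treated labelled KO libraries were the lowest of the 8, and the lower treated control library fell within the range of the untreated labelled KO libraries. The treated difference was a log2 fold change of -2.08 (SE 0.52, adjusted p = 0.0282), that is 0.237 times the control level. In untreated cells it was -0.95 (SE 0.51, adjusted p = 0.435), and for TGF-β it was -0.22 (SE 0.47, adjusted p = 0.802) in control and -1.35 (SE 0.56, adjusted p = 0.192) in labelled KO cells. The treated call was lost without the first treated control library (-1.32, adjusted p = 0.106), without either treated KO library (-1.81 and -2.40, adjusted p = 0.123 and 0.0995) and with the replicate block (-2.01, adjusted p = 0.0502). *Gm11670*, an antisense gene that shares exon sequence with *Axin2*, had no count.

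**Figure D3:**
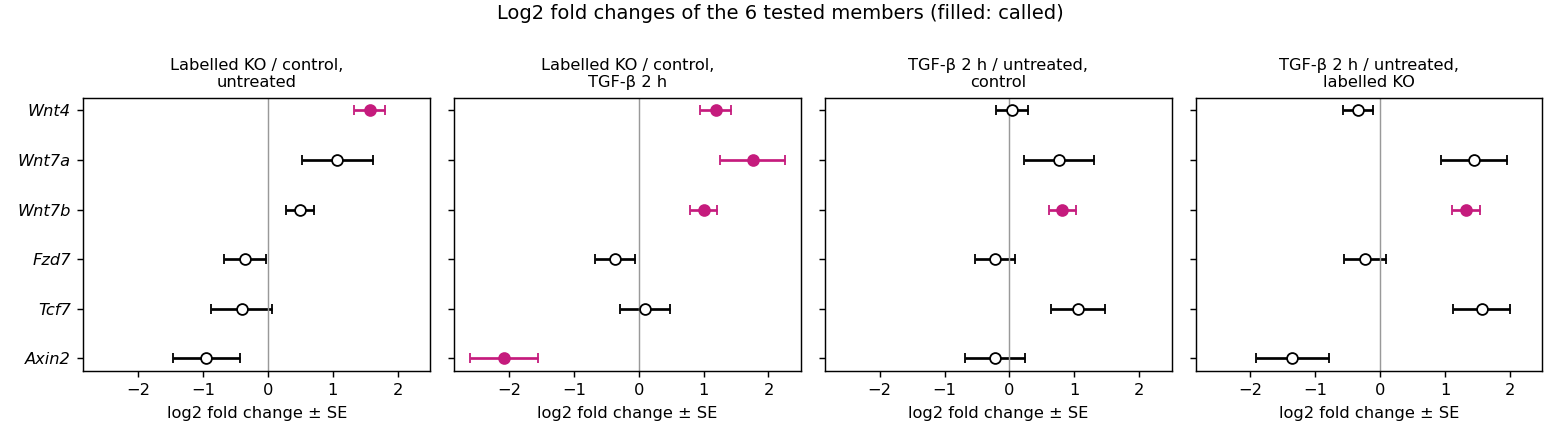
Log2 fold changes with their standard errors (edgeR, n = 2 libraries per group) of the 6 genes abundant enough to be tested, in the 4 comparisons. Filled points passed the threshold, namely *Wnt4* untreated, *Wnt4*, *Wnt7a*, *Wnt7b* and *Axin2* after TGF-β, and *Wnt7b* in both TGF-β responses.

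By comparison, *Wnt4* was the single gene of the 6 tested that was called between untreated genotypes, where 1.83% of the 13028 tested genes were called (1.03% upward and 0.798% downward). In treated cells 4 of the 6 passed, 3 higher and 1 lower, against 15.0% of all tested genes (8.47% higher and 6.57% lower). All 4 treated calls were lost when only the 4 treated libraries were fitted (adjusted p = 0.0557 for *Wnt4*, 0.10 for *Wnt7a*, 0.0813 for *Wnt7b* and 0.103 for *Axin2*). Treated replicates differed more than untreated ones (chi-square per degree of freedom 36.1 and 30.3 against 10.9 and 6.28), and the main fit shared 1 spread over all groups. For TGF-β against untreated, 1 of the 6 was called in control cells, where 9.16% of all genes were (4.69% higher and 4.47% lower), and 1 in labelled KO cells, where 6.82% were (4.25% higher and 2.57% lower). Tests of whether the TGF-β response differed between genotypes called none of the 6 (adjusted p from 0.664 to 1) and 0.0% of all genes in edgeR. That test had 1134 genes and none of the 6 at an unadjusted p below 0.05, and DESeq2 called 30 genes, again none of the 6. Without a filter on low counts, edgeR called 211 genes, also none of the 6. The effects above that passed in 1 condition or genotype alone are therefore not shown to differ between them.

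The 10 genes lie on 8 chromosomes. The 10 nearest tested genes of *Wnt4* had a median log2 fold change of 0.02 between untreated genotypes, with 0 called, and 0.05 after TGF-β, with 0 called. Those of *Axin2* had a median of 0.35 after TGF-β with 1 called, those of *Wnt7a* -0.01 with 3 called, and those of *Wnt7b* 0.23 with 2 called. Genes whose level followed a member most closely over the 8 libraries, by the root mean square difference of centred log2 CPM, were *C2* (0.135) and *Acot1* (0.165) for *Wnt4*, *Micall1* (0.105) and *5730559C18Rik* (0.134) for *Wnt7b*, *Gem* (0.377) and *B230312A22Rik* (0.402) for *Wnt7a*, and *Rab20* (0.324) and *E130012A19Rik* (0.356) for *Axin2*.

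The other genes of the pathway were taken as a list of 96 rows covering ligands, ligand release, receptors, R-spondins, antagonists, the cytoplasmic relay, nuclear partners, planar polarity and common targets. Of these, 31 had no count, 41 had at most 3 counts in each library and 47 were tested. Between untreated genotypes 2 were higher and 1 lower (6.38% of those tested, against 1.83% of all genes), with a median log2 fold change of 0.04 against 0.02 over all genes. After TGF-β 9 were higher and 2 lower (23.4%, against 15.0%), with a median of 0.25 against -0.01. In the TGF-β response, 4 rose and 3 fell in control cells (14.9%, against 9.16%) and 3 rose and 3 fell in labelled KO cells (12.8%, against 6.82%). Left out in turn, each untreated library removed all 3 untreated calls, and the treated genotype count ranged from 5 without the second treated KO library to 14 without the first treated control library. The counts for TGF-β fell to 2 in control cells without control replicate 1 or 2, and in labelled KO cells to 1 without KO replicate 1, KO replicate 2 or the second treated KO library, and to 3 without the first treated KO library. Summed levels of 5 marker lists did not overlap between genotypes in at least 1 condition. The leukocyte list of 6 genes, of which *Adgre1* and *Cd74* had no count, was lower in untreated controls (3.38 to 3.42 CPM) than in untreated labelled KO libraries (4.19 to 5.58), where *Cd68* made up most of the sum. In treated libraries it stood the other way, at 3.56 to 4.66 in controls and 2.23 to 2.45 in labelled KO. There *Cd68* overlapped (2.16 and 3.49 against 2.45 and 1.99 CPM) while *Csf1r* had 15 and 9 counts against 0 and 1. The basal cell list stood at 4.88 to 5.91 CPM in untreated controls and 2.87 to 2.92 in untreated labelled KO libraries, with *Krt14* at 5.19 and 4.64 against 2.42 and 2.66. The luminal list was at 5913 to 5988 CPM in untreated controls and 6677 to 7009 in untreated labelled KO libraries. Treated controls and treated labelled KO libraries stood at 2.72 to 4.44 and 4.61 to 4.73 CPM for the fibroblast list, and at 0.562 to 0.847 and 0.326 to 0.556 for the endothelial list. The part of these lists in the counts of called pathway genes was not tested.

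**Figure D4:**
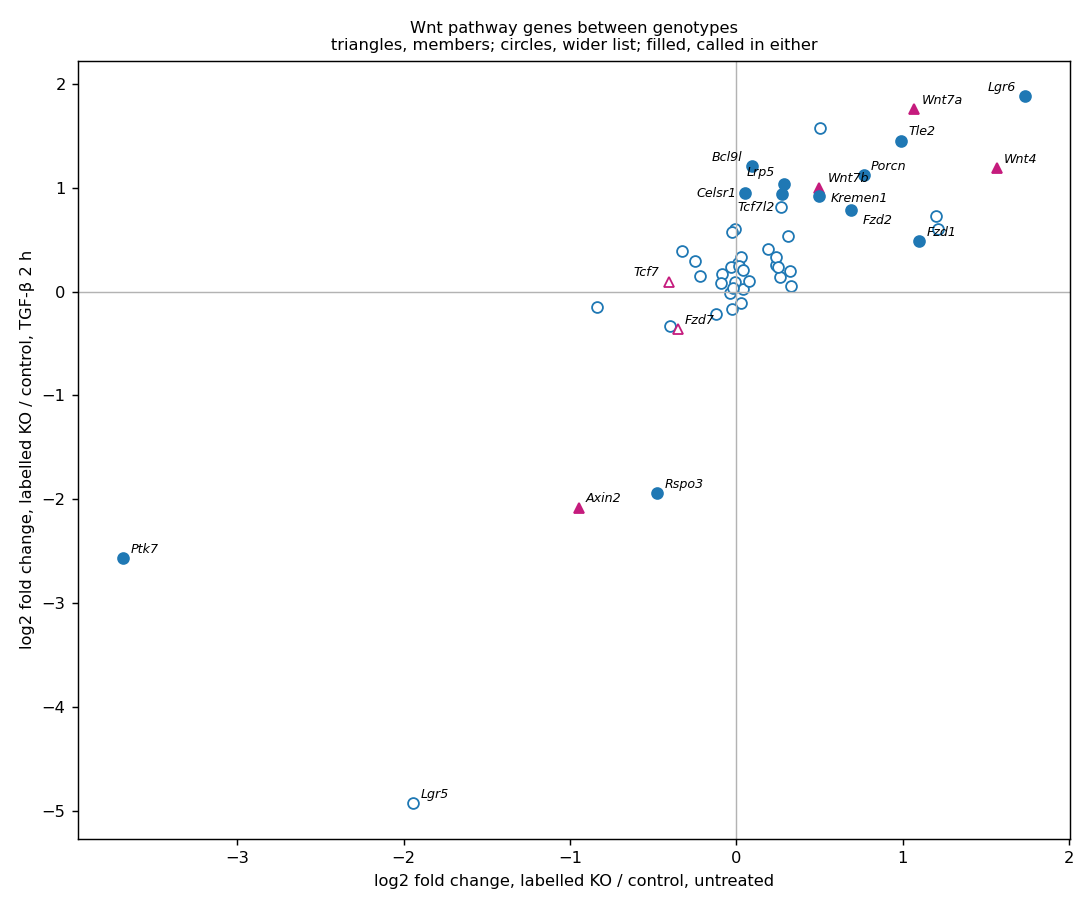
Log2 fold changes between genotypes in untreated (x axis) and TGF-β treated (y axis) libraries, which share no library, for the 6 tested members (triangles) and the 47 tested genes of the wider list (circles). Filled symbols were called in either comparison. *Wnt4*, *Wnt7a* and *Lgr6* lie at the upper right and *Axin2*, *Rspo3* and *Ptk7* at the lower left. *Lgr5*, labelled after its value was seen, has 0 counts in both treated labelled KO libraries and was not called.

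Of 4 components shared by many Wnt signals, *Ctnnb1*, *Lrp6* and *Wls* passed the threshold in none of the 4 comparisons in edgeR with the filter on low counts, and *Porcn* passed it in 1. *Ctnnb1*, which encodes β-catenin, was at 2534 to 3302 CPM, with log2 fold changes from -0.11 to 0.27. *Lrp6*, a co-receptor, was at 139 to 181 CPM, with log2 fold changes from -0.09 to 0.32. *Wls*, the carrier that brings Wnts to the cell surface, was at 164 to 294 CPM, with log2 fold changes from -0.03 to 0.59. Its TGF-β response in labelled KO cells passed in DESeq2 (adjusted p = 0.0271) and without a filter on low counts (0.00425). *Porcn*, the enzyme that attaches lipid to Wnts, was higher in treated labelled KO libraries by 1.12 (SE 0.26, adjusted p = 0.0214), with 43.0 and 41.5 CPM against 24.4 and 14.4 in treated controls. That call was lost without the second treated control library or either treated KO library, and with only the 4 treated libraries.

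Among R-spondins and their receptors, *Lgr6* was higher and *Rspo3* lower in treated labelled KO libraries. *Lgr6*, a receptor for R-spondins, measured 2.05 and 1.83 CPM in untreated controls, 11.9 and 11.7 in treated controls, 8.60 and 4.78 in untreated labelled KO and 49.1 and 38.1 in treated labelled KO libraries. No group overlapped another. TGF-β raised it 6.06-fold in control cells (log2 2.60, SE 0.33, adjusted p = 0.00248) and 6.69-fold in labelled KO cells (2.74, SE 0.29, adjusted p = 0.00111), and it was higher in labelled KO cells by 1.74 (SE 0.35, adjusted p = 0.0449) untreated and 1.88 (SE 0.27, adjusted p = 0.00354) treated. *Rspo3*, which encodes an R-spondin, measured 7.84 and 4.76 CPM in untreated controls, 20.4 and 14.2 in treated controls, 5.51 and 3.72 in untreated labelled KO and 4.24 and 4.77 in treated labelled KO libraries. Its treated controls stood above the other 6 libraries, with a treated genotype difference of -1.94 (SE 0.34, adjusted p = 0.00776) and a TGF-β response of 1.46 (SE 0.34, adjusted p = 0.0308) in control and -0.01 (SE 0.38, adjusted p = 0.995) in labelled KO cells, a difference of responses that did not pass (adjusted p = 0.497). The untreated *Lgr6* call was lost without control replicate 1, control replicate 2, KO replicate 1 or KO replicate 2 (adjusted p = 0.211, 0.314, 0.261 and 0.0597) and in limma-voom (0.189), and the *Rspo3* response without control replicate 1 or 2 or the first treated control library (0.0956, 0.178 and 0.0777) and with only the 4 control libraries (0.0649).

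*Ptk7*, a receptor-like pseudokinase of the non-canonical branch, fell to a few counts in labelled KO libraries. It had 16 and 22 counts in untreated controls, 29 and 16 in treated controls, 1 and 1 in untreated labelled KO and 4 and 5 in treated labelled KO libraries, and the genotypes did not overlap. The depth-scaled ratio of control to labelled KO counts was 13.9 untreated (exact 95% interval 3.59 to 119, adjusted p = 0.0492 in edgeR) and 6.18 treated (2.98 to 14.4, adjusted p = 0.0193). These intervals, too, cover counting error only and not the larger spread between replicate libraries. *Fzd1* was higher in labelled KO cells before treatment (19.8 and 20.7 against 9.29 and 9.64 CPM, log2 1.10, SE 0.20, adjusted p = 0.0269) and rose with TGF-β in control cells to 16.5 in both libraries (0.80, SE 0.19, adjusted p = 0.0346). The untreated *Ptk7* and *Fzd1* calls were each lost without any 1 of the 4 untreated libraries (adjusted p from 0.165 to 0.312 and from 0.142 to 0.204), with the replicate block (0.0918 and 0.0540) and in limma-voom (0.0978 and 0.0538), and that of *Ptk7* also in DESeq2 (0.0843). The treated *Ptk7* call was lost without either treated KO library and with only the 4 treated libraries, and the *Fzd1* response without any 1 of its 4 libraries (adjusted p = 0.206, 0.15, 0.051 and 0.0692), with the replicate block (0.0571) or with only the 4 control libraries (0.133). *Fzd6* rose with TGF-β by 0.63 (SE 0.15, adjusted p = 0.0354) in control and 0.61 (SE 0.15, adjusted p = 0.0443) in labelled KO cells. The latter call was lost without any 1 of its 4 libraries (adjusted p from 0.109 to 0.27) and with the block (0.0619), the former without control replicate 1 or 2 or the first treated control library, with the block and with only the 4 control libraries.

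**Figure D5:**
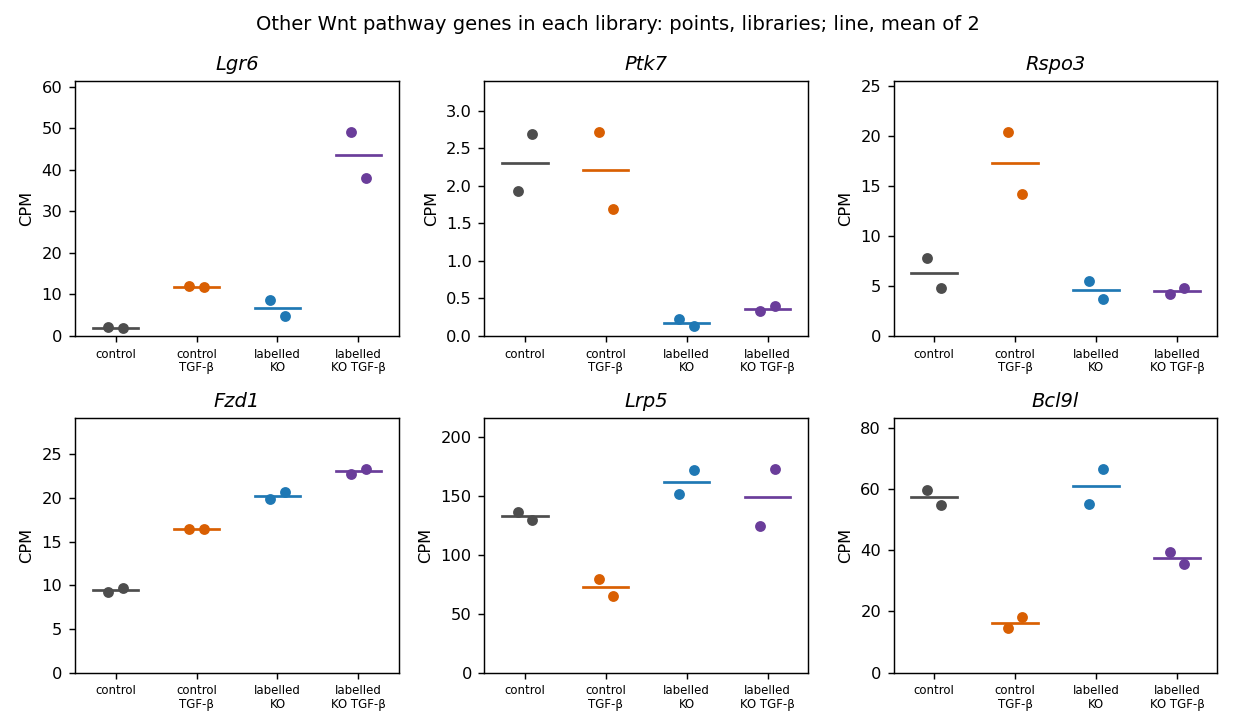
CPM (depth-scaled counts, linear axes from 0) of 6 genes of the wider list in each library, with points for libraries and a line for the mean of 2. *Lgr6* reaches 49.1 and 38.1 CPM in treated labelled KO libraries, *Ptk7* is low in all labelled KO libraries, *Rspo3* is high in treated controls, and *Lrp5* and *Bcl9l* are lowest in treated controls.

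*Lrp5*, *Bcl9l* and *Celsr1* fell with TGF-β in control cells and stood higher in treated labelled KO than in treated control libraries. *Bcl9l*, a β-catenin co-activator, went from 59.7 and 54.9 CPM in untreated to 14.5 and 18.1 in treated controls (log2 -1.81, SE 0.18, adjusted p = 0.000886) and from 55.1 and 66.7 to 39.4 and 35.7 in labelled KO cells (-0.70, SE 0.18, adjusted p = 0.0457). The co-receptor *Lrp5* went from 136 and 130 CPM to 79.7 and 65.2 in controls (-0.88, SE 0.19, adjusted p = 0.0232), against 152 and 172 and then 124 and 173 in labelled KO libraries (-0.12, SE 0.18, adjusted p = 0.744). *Celsr1*, a cadherin of planar polarity, changed by -0.91 (SE 0.20, adjusted p = 0.0248) in control and -0.02 (SE 0.20, adjusted p = 0.976) in labelled KO cells. For *Bcl9l*, *Lrp5* and *Celsr1* the difference of responses was 1.11, 0.75 and 0.89, none of which passed (adjusted p = 0.43, 0.497 and 0.474). Without a filter on low counts, the differences of *Bcl9l* and *Celsr1* passed. The treated genotype differences were 1.20 (SE 0.18, adjusted p = 0.00454), 1.04 (SE 0.19, adjusted p = 0.0084) and 0.95 (SE 0.20, adjusted p = 0.0149) for *Bcl9l*, *Lrp5* and *Celsr1*. Each of these comparisons uses the same treated control libraries. *Bcl9l* kept its control response and treated genotype calls with each library left out. Its labelled KO response was lost without any 1 of its 4 libraries (adjusted p from 0.094 to 0.279) and with the block (0.074). Without control replicate 1, control replicate 2 or the second treated control library, the control responses of *Lrp5* (adjusted p = 0.157, 0.0952 and 0.0638) and *Celsr1* (0.0757, 0.152 and 0.0726) were lost. The treated genotype calls of both were lost without the second treated KO library (0.0513 and 0.0961) and with only the 4 treated libraries (0.0593 and 0.0680), and that of *Celsr1* without the second treated control library (0.059).

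Further nuclear and relay genes passed in 1 or 2 comparisons each. *Tle2*, a Groucho co-repressor that binds TCF factors, was at 17.0 and 15.2 CPM in treated labelled KO against 5.90 and 5.82 in treated control libraries (log2 1.45, SE 0.23, adjusted p = 0.00559). *Tcf7l2*, which encodes TCF4, was at 31.5 and 30.2 CPM in treated labelled KO libraries, above the other 6 libraries, with a treated genotype difference of 0.94 (SE 0.20, adjusted p = 0.0173) and a TGF-β response of 0.86 (SE 0.21, adjusted p = 0.0402) in labelled KO cells. In the same cells TGF-β lowered *Dvl2*, a Dishevelled relay protein, by a log2 fold change of -1.02 (SE 0.24, adjusted p = 0.0343) and *Dact2*, which binds Dishevelled, by -1.52 (SE 0.39, adjusted p = 0.0496). The responses of *Tcf7l2*, *Dvl2* and *Dact2* were each lost without any 1 of the 4 labelled KO libraries (adjusted p from 0.109 to 0.237, from 0.0847 to 0.227 and from 0.119 to 0.287), those of *Tcf7l2* and *Dact2* also with the block (0.0591 and 0.0704) and that of *Dact2* in DESeq2 (0.0535). The treated genotype call of *Tcf7l2* was lost without either treated KO library and with only the 4 treated libraries, while that of *Tle2* held with each library left out.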

How the data were processed

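The 8 libraries were grouped by the genotype and treatment of their labels. The deposited table holds raw, whole-number read counts for each gene, made by the authors without normalization. Per the paper's methods, the authors aligned reads with subjunc to mm10 and mm9, removed duplicates with samtools rmdup and tested with DESeq2, whereas the submitters' processing notes name HISAT2, limma and mm10. Paper and labels also differ on RNA extraction, kit, sequencer and read layout. How reads were counted, and whether by strand, is not given in the sources used here. All 37310 gene identifiers matched GENCODE vM1 on NCBIM37, which gave symbols, positions and exon lengths.

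edgeR 4.0.16 (R 4.3.3) was used for TMM factors, CPM, RPKM over the union of exons, and tests. The 13028 genes passing filterByExpr were fitted together with 1 coefficient per group and no replicate block (glmQLFit, glmQLFTest), with a common biological coefficient of variation of 0.180 and 4 residual degrees of freedom. Genes were called at a Benjamini-Hochberg adjusted p below 0.05 over all genes tested and an absolute log2 fold change above 0.5, the difference of TGF-β responses by the adjusted p alone. The SE is the absolute log2 fold change divided by the square root of F. Ratios of low counts have exact 95% intervals. Tested on simulated data for the untreated genotypes, 52 of 100 genes changed by log2 1 and 89 of 100 changed by log2 2 were recovered, with 7 false calls, among 13028 genes. Alternatives were RLE factors, no filter, a replicate block, limma-voom (limma 3.58.1), DESeq2 1.42.0, only the libraries compared, and each library left out, in which case the lone library is assumed to vary like the other groups.

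All 10 members are described. Of the wider list, the called genes with the smallest adjusted p (at most 6 a comparison) were named, plus *Ctnnb1*, *Lrp6* and *Wls*, and for each called member the 2 genes of most similar level over the libraries. *Porcn*, *Kremen1*, *Apcdd1* and *Lgr5* were added after their values were seen. The members and lists were chosen with earlier results of these data known.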

Additional observations from a re-analysis of the deposited data

How the results depend on the processing

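Replicate numbers name the libraries and were not taken to pair them. With 2 pairs a comparison, the deviations of libraries sharing a number correlated across genes at 0.098, -0.47, 0.30 and -0.0092 (untreated genotypes, treated genotypes, TGF-β in control and in labelled KO cells). At -0.47, treated libraries sharing a number tended to deviate in opposite directions. The main fit leaves such variation in its residual. With the replicate block, 2 of the 6 tested members (*Wnt4* and *Wnt7b*) were called between treated genotypes, beside 1490 of all 13028 genes. For TGF-β in control cells 0 members were called, beside 831 genes. Of the wider list, 1 gene was called between untreated genotypes (150 over all genes) and 2 for TGF-β in labelled KO cells (676 over all genes). Crossed numbers, an alternative chosen after seeing the data, gave 4 and 12 calls (members and wider list) and 2809 over all genes between treated genotypes. Without a filter on low counts, 2 members were called between untreated genotypes (*Wnt4* and *Wnt7a*), 3 for TGF-β in labelled KO cells, and of the wider list 12 for TGF-β in control cells and 2 for the difference of responses (*Bcl9l* and *Celsr1*). limma-voom called 0 of the wider list between untreated genotypes (137 over all genes) and 0 members for TGF-β in control cells (1084 over all genes). DESeq2 called 2 members for TGF-β in labelled KO cells, beside 1237 over all genes. With only the 4 libraries compared, 0 members were called between treated genotypes and 0 for TGF-β in control cells, and 4 of the wider list in each of these 2 comparisons.

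Leaving out each library in turn gave 0 to 1 member calls between untreated genotypes, 0 to 3 between treated genotypes, 0 to 1 for TGF-β in control and 0 to 2 in labelled KO cells. For the wider list the ranges were 0 to 0, 5 to 14, 2 to 6 and 1 to 3. Calls over all genes were 238 between untreated genotypes but 756 without a filter, 150 with the block, 137 by limma-voom, 428 by DESeq2, 804 with 4 libraries and 41 to 53 with a library left out. Between treated genotypes, 1959 became 410 with 4 libraries and 486 to 2788 with a library left out. For TGF-β, 1194 in control cells became 2021 without a filter, 470 with 4 libraries and 139 to 1479 with a library left out, and 889 in labelled KO cells became 1832 and, with a library left out, 136 to 827. The difference of responses gave 211 calls without a filter, 30 by DESeq2 and 0 to 6 with a library left out. The main fit shared 1 estimate of spread per gene over the 4 groups. The chi-square per degree of freedom between replicates was 36.1 in treated controls and 30.3 in treated labelled KO libraries. It was 10.9 in untreated controls and 6.28 in untreated labelled KO libraries. This measure also rises with depth, and the treated libraries were deeper. The cause of these changes was not tested.

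Directions turned for values near 0 or resting on 1 library. The *Fzd7* difference of responses was 0.0036 with RLE factors, 0.055 without a filter, 0.028 with the block, 0.026 by limma-voom and 0.0013 by DESeq2, and untreated *Ctnnb1* was -0.0095 without a filter. With a library left out, *Fzd7* ranged from -0.74 to 0.041 between treated genotypes, -0.64 to 0.066 for TGF-β in control cells, -0.61 to 0.079 in labelled KO cells and -0.37 to 0.41 for the difference of responses. *Wnt7a* ranged from -0.19 to 1.23 for that difference, *Tcf7* from -0.14 to 0.31 between treated genotypes, *Wnt4* from -0.055 to 0.10 and *Axin2* from -0.99 to 0.24 for TGF-β in control cells, and between untreated genotypes *Wls* from -0.12 to 0.050, *Lrp6* from -0.19 to 0.020, *Ctnnb1* from -0.058 to 0.11 and *Gm13507* from -0.15 to 2.10. The order of levels in untreated controls did not change with the longest transcript as the length (0 genes moved). Of the other values of named genes under these alternatives, 452 kept their direction and side of the threshold, 27 lost and 7 gained a call, and with a library left out 235 kept them, 68 lost and 1 gained a call. Members below 3 counts per library cannot be compared at these depths.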
